A study of Drosophila melanogaster with 8 samples.

Results

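The odorant-binding proteins of the fruit fly, encoded by the Obp genes, were followed in RNA from fly heads on 8 Affymetrix Drosophila Genome 2.0 arrays. The family was taken as all probe sets (groups of short probes that read 1 transcript) whose platform annotation gives a single symbol made of Obp and a digit. Of the 18769 probe sets that are not controls, 50 met this, and they stood for 47 of the 11981 genes that have a probe set of their own. The probe set with the highest mean over the 8 arrays stood for each gene. A gene was counted as seen in heads where its log2 intensity was at least 4 on at least 2 arrays, which held for 22 of the 47 and not for the other 25.

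Odorant-binding proteins are small secreted proteins that bind hydrophobic molecules. In insects they are best known from the fluid around the dendrites of smell and taste neurons, where support cells release them. Many members are made elsewhere, among them in fat body, in glia and in the reproductive tract of males, which transfer some of them to females in the seminal fluid.

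The study asked how a rhythmic cluster of miRNAs, miR-959 to miR-964, affects when flies feed and other rhythms that the clock controls. Its 4 strains were collected at ZT4 and ZT16, which are 4 h and 16 h after lights on, after 3 days of 12 h light and 12 h dark, with 1 array for each strain and time and no replicates. The w1118 strain was the control of a strain with the genotype w1118 ; mir959-962-KO, called the knockout here, whose label names a deletion of miR-959 to miR-962. The strain yw ; tim-gal4/CyO, called the tim-gal4 control or driver control, was the control of yw ; tim-gal4, UAS-mir-cluster/CyO, called overexpression here. Both of these carried the CyO balancer chromosome and the tim-gal4 driver, which follows the promoter of the clock gene tim and so acts in the cells where that promoter is active. The miRNA cluster transgene was present only under overexpression. All RNA was total RNA taken with TRIzol from heads removed from frozen adult flies. The labels give neither the sex and age of the flies nor the number of heads behind an array.

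The deposited values are log2 intensities made with GCRMA, which subtracts a background for each probe, scales the arrays to each other and gives 1 value per probe set. The lowest value was 2.32 on every array, so a value near it is a transcript not seen above background and a fold against it is not quantitative. Between 39.8% and 40.8% of the probe sets reached 4 on an array. The comparisons were fitted with limma over the 8300 probe sets that reached 4 on at least 2 arrays, with strain and time as terms. A difference is called, and a gene is said to have risen or fallen, only where the Benjamini-Hochberg adjusted p is under 0.05. The error (SE) comes from how far the time change differs between strains, since 1 array per condition gives no other. Limma moderates it with the spread over all probe sets kept. In a strain comparison the ZT4 and ZT16 arrays stand in for replicates. Its p-values therefore do not measure the spread between separate collections of a strain. Among the core clock genes, which serve as a check of the collection times, 3 of 8 rose at ZT16 (per, tim and vri) and 2 fell (Clk and cry). The log2 difference was 3.38 for per and -2.28 for cry.

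The ZT16 arrays of the knockout and of the tim-gal4 control stood apart from the other 6. Of 13 measured markers of the male accessory gland, ejaculatory duct and bulb, 12 reached 4 on each of these arrays, against 0 or 1 on each of the others. Summed as linear intensities, the 13 came to 11534 in the knockout at ZT16 and 7952 in the tim-gal4 control at ZT16, and to between 68.8 and 85.0 on the other arrays. Acp98AB, an accessory gland gene, read 12.15 and 11.64 on these arrays, 4.28 in the knockout at ZT4 and at most 2.37 elsewhere. Of 12 testis markers, 10 reached 4 on each of them and 0 elsewhere. Of 9 gut enzymes, 6 reached 4 on each of them, against LManII alone on the other arrays. Dissected heads should hold none of these tissues, and both are called the arrays with body transcripts here. Of markers that the head should hold, 3 or 4 of 4 neuronal genes, both photoreceptor genes and 8 of 10 fat body genes reached 4 on each of the 8 arrays. The 10 fat body genes, summed as linear intensities, came to 88657 and 89194 in w1118, 94947 and 95384 in the knockout, 86884 and 86972 in the driver control, and 78247 and 83352 under overexpression, with the lower array first. Within the list the yolk protein gene Yp1 read between 14.84 and 14.89, while the larval serum protein gene Lsp2 ranged from 5.83 under overexpression to 12.76 in the knockout.

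The members fell into a seen and an unseen set, with several genes near the limit. Of the 22 seen genes, 14 reached 4 on all 8 arrays. They were Obp18a, Obp19b, Obp19d, Obp44a, Obp49a, Obp56d, Obp56e, Obp56g, Obp56h, Obp57a, Obp57b, Obp57c, Obp99b and Obp99c. The other 8, Obp8a, Obp51a, Obp56a, Obp56f, Obp69a, Obp83cd, Obp83ef and Obp99a, were under 4 on at least 1 array. Each array had between 17 and 20 members at 4 or more, with 17 in the knockout at ZT4 and 20 on each ZT16 array with body transcripts. Obp69a lay just inside the limit, with 4.66 and 4.44 on its highest arrays. Just outside lay Obp22a, with 5.29 and 3.85 on its highest arrays, and Obp19c, with at most 3.68. Leaving out both arrays with body transcripts left 20 seen, without Obp51a and Obp56f.

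**Figure D1:**
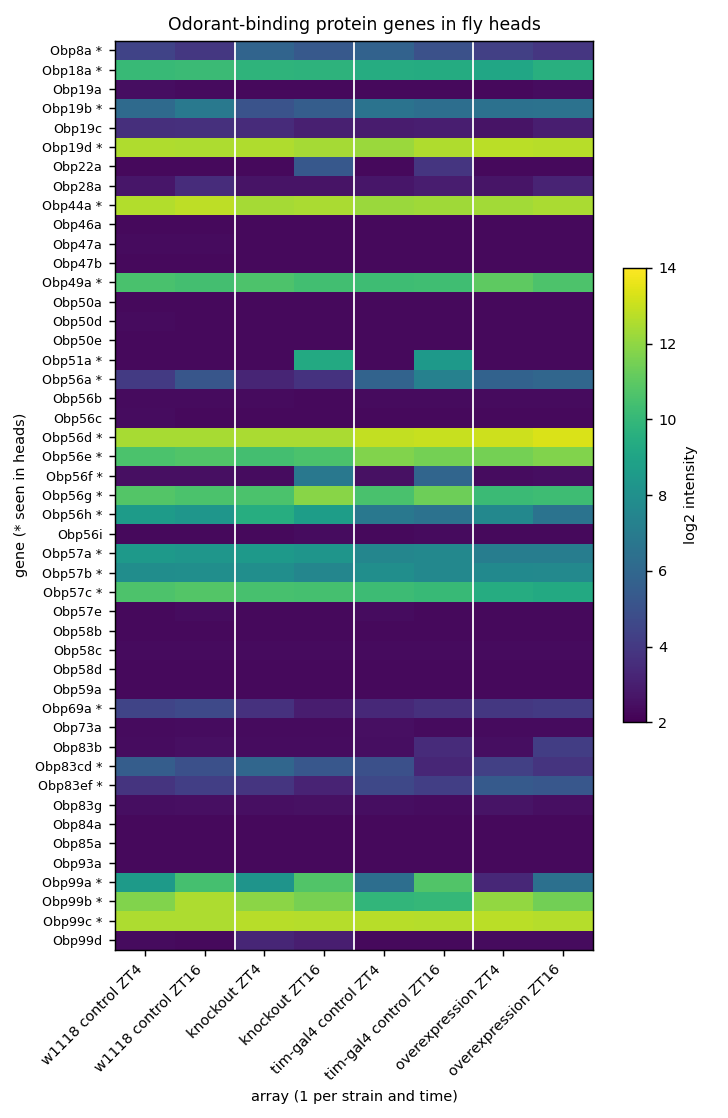
Log2 intensity of the 47 odorant-binding protein genes (vertical axis, a star marks the 22 seen in heads) on the 8 arrays (horizontal axis), with white lines between strains. Colour runs from 2 to 14 on the log2 scale. Most unseen genes stay dark on all arrays, Obp51a, Obp56f and Obp22a rise above the dark range only on the ZT16 arrays of the knockout and the tim-gal4 control, and Obp99a is darkest under overexpression.

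Among the unseen genes, 20 of 25 stayed under 3 on every array, and 17 of 25 were within 0.1 of the lowest value throughout. Several are known from the antenna. Obp28a, an abundant antennal protein that shapes odor responses, reached 3.53 at most. Obp83b, also called Os-E, is an antennal protein of pheromone-sensing sensilla. It reached 4.17 in overexpression at ZT16, 3.48 in the tim-gal4 control at ZT16 and at most 2.49 on the other arrays. Obp59a, which is needed for humidity sensing, stayed at 2.32, as did Obp84a. Obp19a reached 2.44, Obp73a 2.50, Obp83g 2.61 and Obp99d 3.28. The remaining unseen genes were Obp46a, Obp47a, Obp47b, Obp50a, Obp50d, Obp50e, Obp56b, Obp56c, Obp56i, Obp57e, Obp58b, Obp58c, Obp58d, Obp85a and Obp93a, with a highest value of 2.42 in Obp56i.

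Transcripts of the olfactory receptor neurons of the antenna were near background. Of 16 measured markers of antenna and maxillary palp, 1 was seen, Snmp2, with a highest value of 4.99. Orco, the co-receptor of olfactory receptors, read 2.34 to 2.35 on the 8 arrays. The pheromone-binding protein gene lush, which belongs to the same protein family but lacks an Obp symbol on the platform, reached 3.01 at most. The ionotropic co-receptors Ir8a and Ir25a reached 2.44 and 2.49. Of 6 markers of taste organs, 1 was seen, Phk-3, and Gr5a and Gr64f, receptors for sugars, stayed at 2.32. Values near 2.32 do not show that a transcript is absent.

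A list of 24 members known from head sensory organs or other head tissue had 22 on the array, of which 15 were seen. A list of 7 members known from seminal fluid (Obp8a, Obp22a, Obp51a, Obp56e, Obp56f, Obp56g and Obp56i) had 5 seen. The other 2 seen genes, Obp56a and Obp56h, were in neither list. In the RefSeq gene order, runs of neighbouring Obp genes differed in how many of them were seen. All 3 genes of the run Obp57c, Obp57b and Obp57a were seen, as were 3 of 4 in the run of Obp99a, Obp99b, Obp99c and Obp99d. The run from Obp56a to Obp56f had 4 of 6 seen, and the run from Obp19a to Obp19d had 2 of 4. None of 4 was seen in the run of Obp59a, Obp58b, Obp58c and Obp58d, and none of the 3 measured genes in the Obp50 run. Of the 51 Obp genes in the RefSeq table, 4 (Obp50b, Obp50c, Obp57d and Obp83a) had no probe set of their own.

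Seminal fluid members differed among themselves on the arrays with body transcripts. Obp51a read 9.27 in the knockout at ZT16 and 8.50 in the tim-gal4 control at ZT16, and 2.32 on each of the other 6 arrays. Obp56f read 6.79 and 5.93 on the same arrays and between 2.39 and 2.54 elsewhere. Obp22a read 5.29 and 3.85 there and 2.32 elsewhere. Most measured markers of accessory gland, testis and gut were high on the same arrays. Which of these tissues the transcripts came from was not tested.

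Obp56g, whose product is part of the mating plug that males form in females, was seen on all arrays. It read 10.78 at ZT4 and 10.61 at ZT16 in w1118, 10.59 and 11.87 in the knockout, 10.56 and 11.34 in the driver control, and 10.19 and 10.26 under overexpression. It too was highest on the arrays with body transcripts, yet it was far above background on the others. Obp51a and Obp56f were among the seen members only through these arrays and so had to be highest there. Of the 20 members seen without these arrays, Obp56g and Obp99a were higher on both than on each of the other 6, against 1.36% of the 7875 probe sets that reached 4 on at least 2 of the other 6, a limit chosen after seeing the data. Over all probe sets kept the share was 5.82%. In the opposite direction 1 member, Obp57b, was lower on both than on each of the others, against 13.6% of the 7875 and 12.9% of all probe sets kept.

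Obp56e and Obp8a, the remaining seen members of the seminal fluid list, were not highest on these arrays. Obp56e read 10.61 and 10.73 in w1118, 10.41 and 10.60 in the knockout, 11.72 and 11.49 in the driver control, and 11.50 and 11.73 under overexpression, with ZT4 first. The w1118 pair (w1118 and the knockout) was lower than the yw pair (the driver control and overexpression) at both times, with no overlap. How common such a separation is among all probe sets kept was not counted. Obp8a was lower on each array with body transcripts than on the ZT4 array of the same strain. Obp56i reached 2.42 at most.

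**Figure D2:**
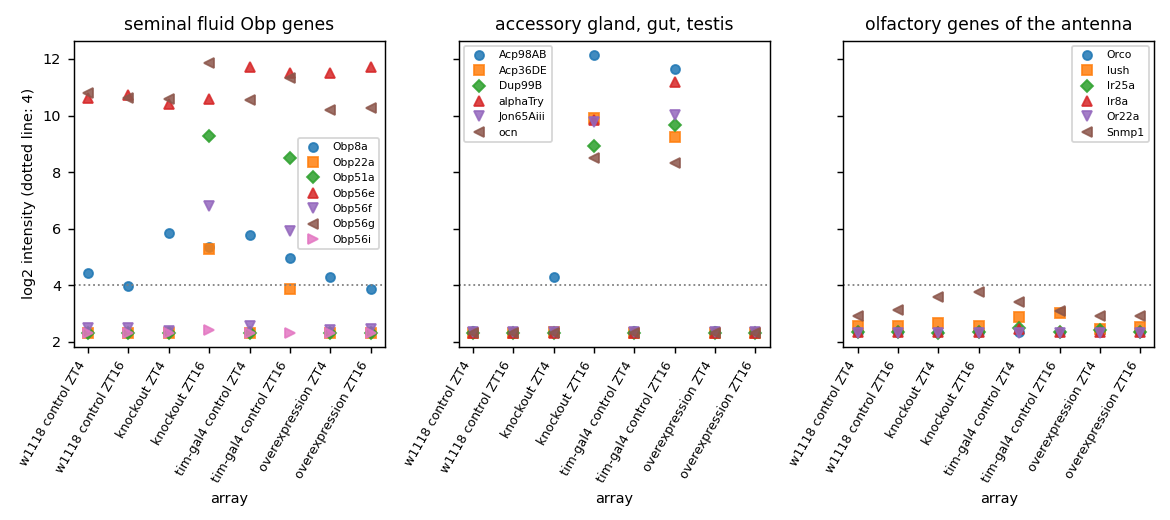
Log2 intensity (vertical axis) on each of the 8 arrays (horizontal axis) of the 7 seminal fluid Obp genes (left), of markers of accessory gland, gut and testis (middle) and of olfactory genes of the antenna (right), 1 point per gene and array. The dotted line marks 4. Obp51a, Obp56f and Obp22a lie with the body markers on the ZT16 arrays of the knockout and the tim-gal4 control, while Obp56e, Obp56g and Obp8a are seen on other arrays too, and the antennal genes plotted stay under 4. Snmp2, the antennal marker that was seen, reached 4.99 and is not plotted.

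The first comparison asks which members differ between the light and the dark phase. None of the 22 seen members passed the test for ZT16 minus ZT4 in limma, where 0.157% of all probe sets kept were called higher and 0.217% lower. Unadjusted p-values were under 0.05 for 5 members. Here and below, the share of all probe sets kept under this unadjusted limit is not given. Such counts are therefore not read as a result about the family. Limma with trended and robust moderation called 1 member, Obp8a, in a fit that called 234 of all 8300 probe sets, against 31 without it. Differences were positive for 11 members and negative for 11. Their median was 0.00 on the log2 scale, against -0.08 over all probe sets kept. In heads a lower or higher value can come from the number of cells that make a transcript or from the RNA per cell, and these cannot be told apart here.

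Obp99a (probe set 1633305_at), a member known from head tissue, had the lowest adjusted p of the 22 for time. It read 8.56 at ZT4 and 10.44 at ZT16 in w1118, 8.20 and 10.76 in the knockout, 6.33 and 10.72 in the driver control, and 3.35 and 6.44 under overexpression. The ZT16 array was the higher of the pair in all 4 strains, by 1.88, 2.56, 4.40 and 3.09 in that order, and no other member had at least a 2-fold difference in every strain. Over the strains the log2 difference was 2.98 (SE 0.41), with a limma adjusted p of 0.0701. The times overlapped between strains, since overexpression at ZT16 was below w1118 and the knockout at ZT4.

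Obp8a differed the other way in all 4 strains. The log2 difference of ZT16 to ZT4 was -0.47 in w1118, -0.49 in its knockout, -0.79 in the driver control and -0.42 with the transgene. Over the strains the difference was -0.54 (SE 0.09), with a limma adjusted p of 0.0987. It was smaller than 2-fold in each strain.

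Within single strains, members that differed at least 2-fold between the arrays were counted with no test, since each is a difference of 2 single arrays. In w1118, 2 members (Obp56a and Obp99a) were higher at ZT16 and 0 lower, against 0.651% and 1.0% of all probe sets kept. The knockout had 4 higher (Obp51a, Obp56f, Obp56g and Obp99a) and 0 lower, against 5.34% and 1.18%. In the tim-gal4 control 4 were higher (Obp51a, Obp56a, Obp56f and Obp99a) and 1 was lower (Obp83cd), against 5.42% and 1.48%. Under overexpression 1 was higher (Obp99a) and 1 lower (Obp56h), against 0.458% and 0.325%.

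The seminal fluid members among these rested on the arrays with body transcripts, through which alone Obp51a and Obp56f counted as seen. Obp51a was 6.95 higher on the log2 scale at ZT16 in the knockout and 6.18 higher in the tim-gal4 control. In both cases the ZT4 array was at background. The differences were 0 in w1118 and under overexpression. Those of Obp56f were 4.40 and 3.39 in the strains with body transcripts at ZT16, -0.01 in w1118 and 0.05 under overexpression. For Obp99a the difference was 1.88 in w1118 and 3.09 under overexpression, on arrays without the body markers.

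Obp56a, which was in neither list, read 4.05 at ZT4 and 5.20 at ZT16 in w1118, 3.24 and 3.74 in the knockout, 5.80 and 7.26 in the driver control, and 5.75 and 5.96 under overexpression. The ZT16 array was the higher in each strain, with a log2 difference over the strains of 0.83 (SE 0.23, limma adjusted p 0.201). Obp83cd read 5.53 and 4.94 in w1118, 5.96 and 5.26 in the knockout, 4.91 and 3.31 in the driver control, and 4.29 and 3.79 under overexpression. Here the ZT16 array was the lower in each strain, with a difference over the strains of -0.85 (SE 0.20, limma adjusted p 0.182). Both genes had arrays under 4, and Obp83cd was lowest on an array with body transcripts. Obp56h was likewise lower at ZT16 in each strain. Its log2 difference was -0.27 in w1118, -0.79 in the knockout, -0.25 in the driver control and -1.06 under overexpression. Over the strains it was -0.59 (SE 0.17, limma adjusted p 0.204).

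**Figure D3:**
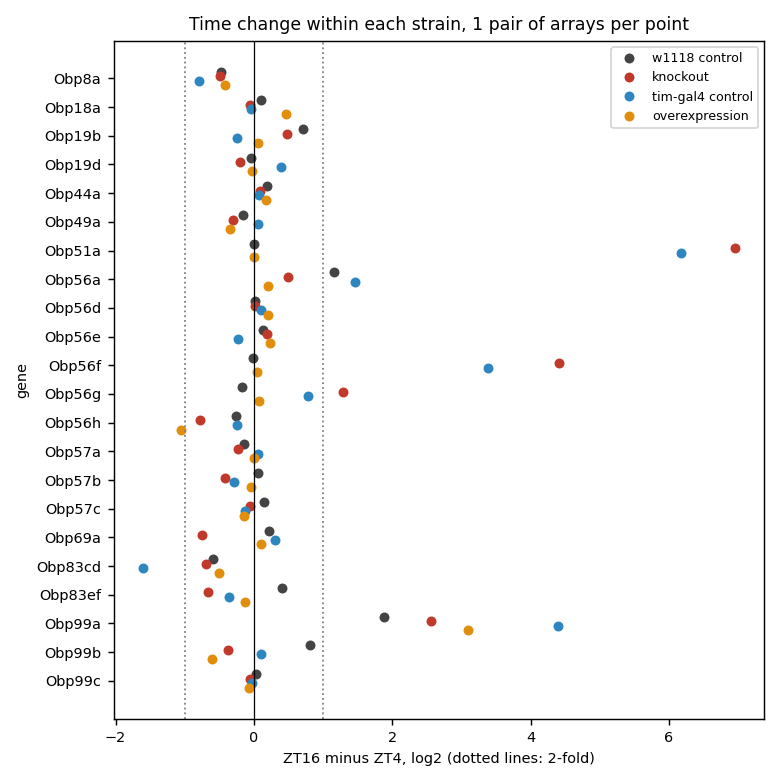
Difference between the ZT16 and the ZT4 array (horizontal axis, log2) of the 22 seen genes (vertical axis), 1 point per strain, with dotted lines at a 2-fold difference. Obp99a lies to the right of the 2-fold line in all 4 strains, and Obp51a and Obp56f do so only in the knockout and the tim-gal4 control, whose ZT16 arrays held body transcripts.

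Whether the time change itself differed in a manipulated strain was tested with an interaction term. Of the 22 seen members, 0 were called for the knockout and 0 for overexpression in limma, and 0% and 0% of all probe sets kept were called. Unadjusted p-values were under 0.05 for 1 member in the knockout and for 0 under overexpression. Limma with trended and robust moderation called 0 in either. Without either tim-gal4 control array, Obp51a and Obp56f were called for the knockout, and without either w1118 array both were called for overexpression. These fits called 357 and 381 of all 8300 probe sets, against 0 with all arrays, and both genes counted as seen only through the arrays with body transcripts. The member with an unadjusted p under 0.05 was Obp69a, which was not called. Its time change was -0.75 in the knockout against a mean of 0.20 in the other strains, a difference of -0.95 (SE 0.20). Both knockout arrays were under 4, with 3.70 at ZT4 and 2.95 at ZT16, where the array held body transcripts. For Obp99a the time change under overexpression was 3.09 against a mean of 2.95 in the other strains, a difference of 0.14 (SE 1.05, limma adjusted p 0.995). With an SE of this size, only a large difference in its time change would have been detectable.

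The second comparison sets the knockout against w1118. Obp8a rose, and it was the only member of 22 called, where 0.759% of all probe sets kept were called higher and 0.819% lower. Unadjusted p-values were under 0.05 for 6 members, with no share of all probe sets to set beside this. The median difference of the members was -0.04, against -0.10 over all probe sets kept.

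Obp8a (probe set 1631115_at), a member known from seminal fluid, read 4.44 at ZT4 and 3.97 at ZT16 in w1118, 5.85 and 5.37 in the knockout, 5.76 and 4.97 in the driver control, and 4.30 and 3.88 under overexpression. The knockout was above w1118 with no overlap, by 1.42 at ZT4 and by 1.40 at ZT16, where the knockout array held body transcripts. The log2 difference was 1.41 (SE 0.13), with a limma adjusted p of 0.0141. Since w1118 at ZT16 was under 4, no fold is given. The call was lost without any of the 4 arrays of these strains (adjusted p 0.121 to 0.172), and without either overexpression array (0.0511), while the difference stayed between 1.36 and 1.45. It held without either array of the tim-gal4 control (0.0321). Over all 8300 probe sets, 131 were called with all arrays, 2 to 24 without an array of these strains, 64 without either overexpression array and 61 without either array of the tim-gal4 control. Without both arrays with body transcripts the difference was 1.43 (adjusted p 0.284), in a fit with 1 residual degree of freedom that called no probe set at all.

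Several other members differed at least 2-fold between these strains without passing the test. Obp19b (probe set 1638374_at), known from taste sensilla and the sensing of amino acids, read 6.16 and 6.86 in w1118, 5.05 and 5.53 in the knockout, 6.59 and 6.35 in the driver control, and 6.49 and 6.54 under overexpression. The knockout was below all 6 arrays of the other strains at both times. Its log2 difference to w1118 was -1.22 (SE 0.25), with a limma adjusted p of 0.125. Limma with trended and robust moderation called it lower.

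Obp69a, a member known from the antenna, read 4.44 and 4.66 in w1118, 3.70 and 2.95 in the knockout, 3.36 and 3.66 in the driver control, and 3.92 and 4.02 under overexpression. Its difference between knockout and w1118 was -1.23 (SE 0.27, limma adjusted p 0.154), with most arrays under 4. For Obp56a the difference was -1.13 (SE 0.32, limma adjusted p 0.244). Both were lower in the knockout than in w1118 at each time. Obp99a did not separate these strains, with a log2 difference of -0.02 (SE 0.58).

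The differences of Obp51a and Obp56f between knockout and w1118 came to 3.48 (SE 2.04) and 2.10 (SE 1.22), both with a limma adjusted p of 0.468. They rested on the ZT16 array with body transcripts, since at ZT4 both genes were at background in both strains. Obp56f turned to -0.090 when both arrays with body transcripts were left out.

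**Figure D4:**
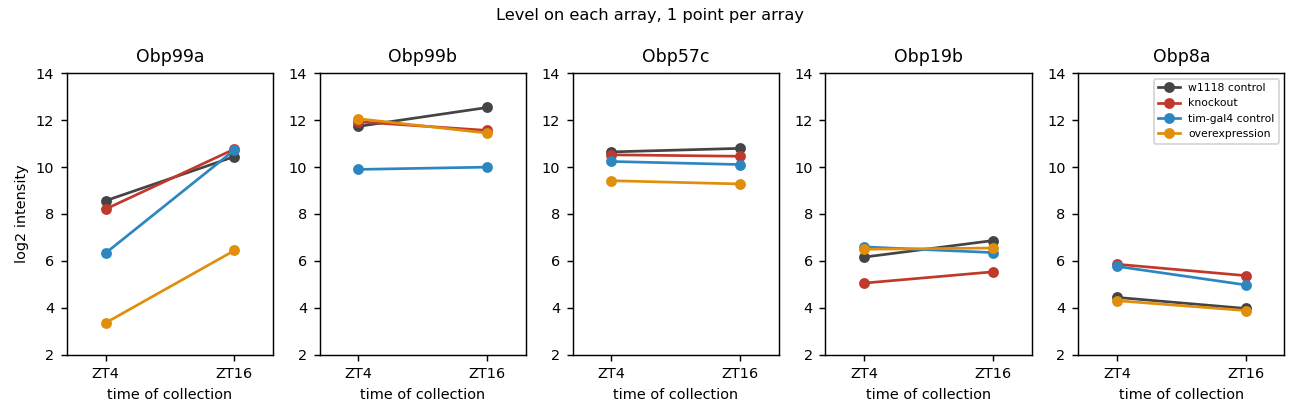
Log2 intensity (vertical axis) at ZT4 and ZT16 (horizontal axis) of Obp99a, Obp99b, Obp57c, Obp19b and Obp8a, 1 point per array and 1 line per strain. Overexpression is lowest for Obp99a at both times and for Obp57c at both times, the tim-gal4 control is lowest for Obp99b, the knockout is lowest for Obp19b, and the knockout and the tim-gal4 control are highest for Obp8a.

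The third comparison sets overexpression of the miRNA cluster against the tim-gal4 control. Of the 22 seen members, 1 rose (Obp99b) and 3 fell (Obp8a, Obp57c and Obp99a), where 14.3% of all probe sets kept were called higher and 6.18% lower. Unadjusted p-values were under 0.05 for 8 members, again with no share of all probe sets to set beside this. The median difference was -0.02, against 0.10 over all probe sets kept. Obp99b, Obp57c and Obp99a are on the list known from head tissue and Obp8a on the seminal fluid list. Leaving out 1 array at a time, 0 were called without overexpression at ZT4 or at ZT16, 1 (Obp8a) without the tim-gal4 control at ZT16 and 2 (Obp8a and Obp99a) without it at ZT4. There were 3 without either knockout array and 5 without either w1118 array. The count over all 8300 probe sets moved as well, from 1698 to 266 and 131 without overexpression at ZT4 and at ZT16, to 219 and 313 without the tim-gal4 control at ZT16 and at ZT4, to 856 without either knockout array and to 1252 without either w1118 array.

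Obp99a had the largest called difference among the members. Its values, given above, were lowest under overexpression at each time, with 3.35 at ZT4 below the limit of 4. The log2 difference was -3.63 (SE 0.58), with a limma adjusted p of 0.0160. No fold is given, since the overexpression array at ZT4 lay near background, where a difference is not quantitative. It was -2.98 at ZT4 and -4.29 at ZT16, where the array of the control held body transcripts. Without that control array the difference was -2.69 (adjusted p 0.0625), and without either overexpression array the call was lost as well (0.0935 and 0.106). Of the 8 seen fat body genes, 0 were called higher and 1 lower in this comparison. That gene was Lsp2, which read 9.72 and 9.45 in the driver control and 5.83 and 6.85 under overexpression, a difference of -3.24 (SE 0.34, limma adjusted p 0.00734). In w1118 against the driver control 2 of the 8, Lsp2 and fit, were higher, by 1.26 (SE 0.34, limma adjusted p 0.0430) and 1.35 (SE 0.13, limma adjusted p 0.00358), and 0 were lower. The part of fat body transcripts in the differences of Obp99a and Obp99b was not tested.

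Obp99b (probe set 1623675_at), named tsx in RefSeq as a synonym and known from the fat body of the male head, moved the other way. It read 11.74 and 12.54 in w1118, 11.93 and 11.56 in the knockout, 9.90 and 9.99 in the driver control, and 12.06 and 11.45 under overexpression. The tim-gal4 control was the lowest strain at both times, and the other 3 strains overlapped with each other. Overexpression was above its control by 1.81 (SE 0.35), which is 3.50-fold, with a limma adjusted p of 0.0251. The adjusted p was 0.0543 without either knockout array and 0.0826 to 0.120 without an array of the compared strains.

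Obp8a fell, with a log2 difference of -1.28 (SE 0.13) and a limma adjusted p of 0.00695. The difference was -1.46 at ZT4 and -1.09 at ZT16, where the control held body transcripts. Overexpression at ZT16 was under 4, so no fold is given. The call was lost without either overexpression array (adjusted p 0.0533 and 0.0570). Overexpression and w1118 overlapped in level, as did the knockout and the tim-gal4 control.

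Obp57c (probe set 1634121_at), known from taste organs, read 10.64 and 10.80 in w1118, 10.52 and 10.46 in the knockout, 10.24 and 10.10 in the driver control, and 9.42 and 9.28 under overexpression. The strains formed an order with no overlap between overexpression, the tim-gal4 control and the w1118 pair. The log2 difference was -0.82 (SE 0.12), a 1.77-fold lower value, with a limma adjusted p of 0.0130, and it was -0.82 at ZT4 and -0.83 at ZT16. The call was lost without any of the 4 arrays of these strains (adjusted p 0.0662 to 0.101).

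Its neighbours in the gene order had smaller differences in this comparison. Obp57a read 8.46 and 8.31 in w1118, 8.50 and 8.27 in the knockout, 7.52 and 7.58 in the driver control, and 7.09 and 7.09 under overexpression. The difference of overexpression was -0.46 (SE 0.12, limma adjusted p 0.0512). Obp57b ranged from 7.50 to 7.93 over all arrays and differed by -0.11 (SE 0.15, limma adjusted p 0.632). In the Obp99 run, Obp99c ranged from 12.50 to 12.74 and differed by 0.03 (SE 0.10, limma adjusted p 0.863), in a run in which Obp99a fell and Obp99b rose.

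Obp49a, which taste support cells release and which lets bitter compounds suppress sweet taste, ranged from 10.29 to 11.02. It differed by 0.52 (SE 0.13), with a limma adjusted p of 0.0505. Obp83ef read 3.82 and 4.24 in w1118, 3.85 and 3.19 in the knockout, 4.61 and 4.25 in the driver control, and 5.38 and 5.25 under overexpression. Its difference was 0.89 (SE 0.26, limma adjusted p 0.0701). Both genes were higher under overexpression than in its control at each time without passing the test. Obp19b differed by 0.05 (SE 0.25, limma adjusted p 0.905).

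As with the knockout, Obp51a and Obp56f differed through an array with body transcripts, here that of the control. Their differences were -3.09 (SE 2.04, limma adjusted p 0.322) and -1.80 (SE 1.22, limma adjusted p 0.334). With a term for the arrays with body transcripts in the fit, they were 0.19 and 0.14.

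A comparison of the control strains, w1118 minus the tim-gal4 control, shows how far members differ between strains with an intact miRNA cluster and no cluster transgene. In it 8 of 22 members were higher in w1118 and 4 were lower, where 19.9% of all probe sets kept were called higher and 11.0% lower. Unadjusted p-values were under 0.05 for the same 12 members, likewise without a share of all probe sets. The median difference was 0.15, against 0.11 over all probe sets kept. More members were called here than for either manipulated strain. The comparison uses the w1118 arrays of the knockout comparison and the control arrays of the overexpression comparison, so its values are not independent of those.

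Higher in w1118 were Obp99b, Obp56h, Obp83cd, Obp69a, Obp57a, Obp18a, Obp57c and Obp44a. Obp99b differed by 2.19 (SE 0.35), a 4.57-fold higher value in w1118, with a limma adjusted p of 0.0114. Obp56h, linked to mating behaviour, read 8.58 and 8.32 in w1118, 9.48 and 8.70 in the knockout, 6.79 and 6.54 in the driver control, and 7.62 and 6.56 under overexpression. All arrays of the w1118 pair were above all arrays of the yw pair. The difference was 1.78 (SE 0.23, limma adjusted p 0.00717).

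Obp83cd and Obp69a differed by 1.12 (SE 0.29, limma adjusted p 0.0385) and 1.04 (SE 0.27, limma adjusted p 0.0419). For Obp83cd the difference was 0.62 at ZT4 and 1.63 at ZT16, where the control held body transcripts. Obp69a was under 4 on both arrays of the control. Neither gene was called with quantile normalization or with a term for the arrays with body transcripts. Obp18a read 10.07 and 10.17 in w1118, 9.82 and 9.76 in the knockout, 9.41 and 9.37 in the driver control, and 9.11 and 9.57 under overexpression, with a difference of 0.73 (SE 0.16, limma adjusted p 0.0259). Obp44a, known from glia and the nervous system, read 12.62 and 12.81 in w1118, 12.39 and 12.47 in the knockout, 12.20 and 12.28 in the driver control, and 12.32 and 12.49 under overexpression. Its difference was 0.47 (SE 0.10, limma adjusted p 0.0231). For Obp18a and, narrowly, Obp83cd the w1118 pair lay above the yw pair on all arrays, while for Obp44a the knockout and overexpression overlapped.

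In the Obp57 run, Obp57a differed by 0.83 (SE 0.12, limma adjusted p 0.00886) and Obp57c by 0.55 (SE 0.12, limma adjusted p 0.0252). For both genes, all arrays of the w1118 pair were above all arrays of the yw pair. Obp57b differed by 0.14 (SE 0.15, limma adjusted p 0.516).

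Lower in w1118 were Obp56a, Obp8a, Obp56e and Obp56d. Obp56a differed by -1.91 (SE 0.32, limma adjusted p 0.0135) and Obp8a by -1.16 (SE 0.13, limma adjusted p 0.00490). Obp56e differed by -0.94 (SE 0.15, limma adjusted p 0.0109). Obp56d read 12.41 and 12.43 in w1118, 12.47 and 12.49 in the knockout, 12.88 and 12.98 in the driver control, and 13.11 and 13.30 under overexpression. Its difference was -0.51 (SE 0.10, limma adjusted p 0.0213). For Obp56a, Obp56e and Obp56d, which lie in 1 run of neighbours, all arrays of the w1118 pair were below all arrays of the yw pair. Members outside this run also separated the pairs, as given above. How many of all probe sets kept separate the pairs in this way was not counted. No separation of the pairs given here is therefore read as a trait of the family or of this run. Obp56f of the same run, which was seen in the control on the array with body transcripts alone, differed by -1.74 (SE 1.22, limma adjusted p 0.309). Obp19d ranged from 12.17 to 12.74 over all arrays and differed by 0.17 (SE 0.17, limma adjusted p 0.445). Obp99a and Obp19b were not called, with differences of 0.98 (SE 0.58, limma adjusted p 0.249) and 0.04 (SE 0.25, limma adjusted p 0.914). For Obp99a the difference was 2.23 at ZT4 and -0.28 at ZT16, where the control held body transcripts.

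**Figure D5:**
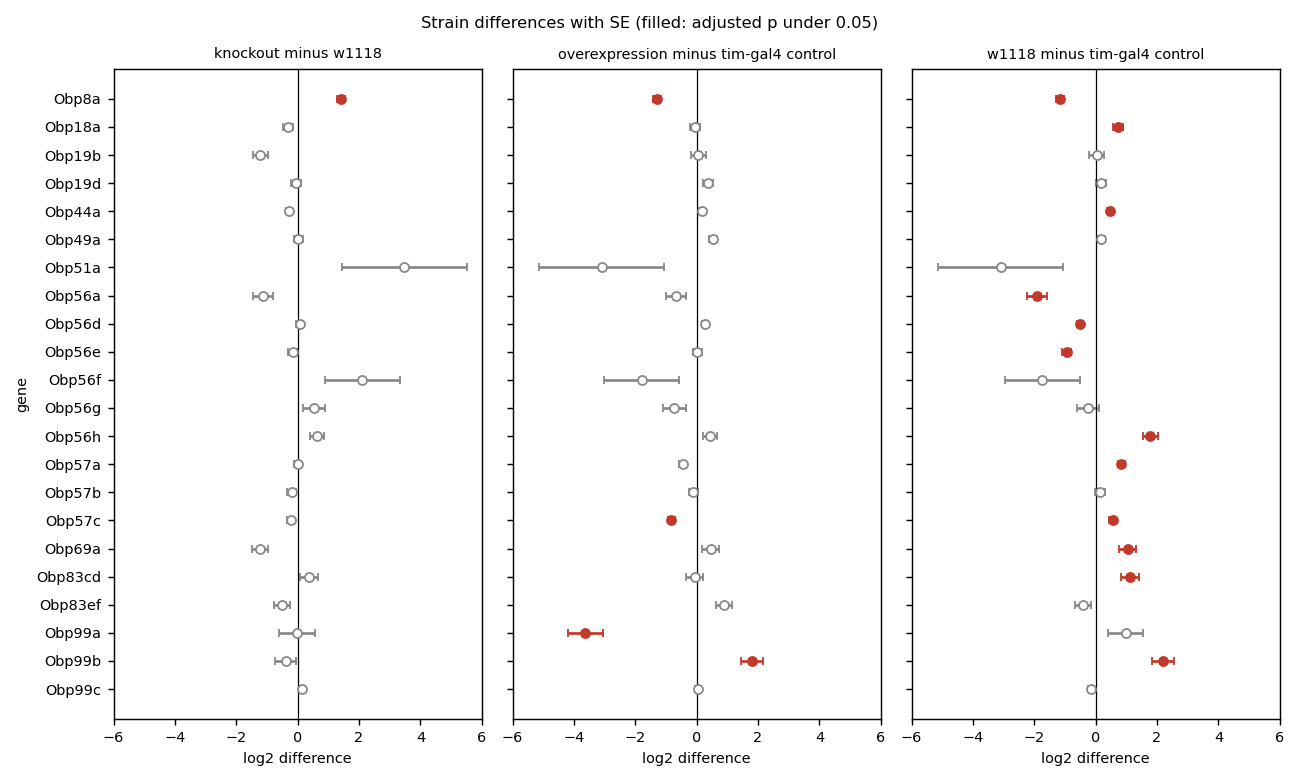
Log2 difference (horizontal axis) with its SE (bars) of the 22 seen genes (vertical axis) for the knockout minus w1118, overexpression minus the tim-gal4 control and w1118 minus the tim-gal4 control, with filled points where the limma adjusted p is under 0.05. The knockout has 1 filled point (Obp8a), overexpression 4 and the control strains 12, and Obp51a and Obp56f have the widest bars in all 3.

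Some members were called in more than 1 of these comparisons, which share arrays. How many of all probe sets kept were called in more than 1 was not counted. Obp8a was called in all 3, with 1.41 for the knockout, -1.28 for overexpression and -1.16 for the control strains. Its mean of both times was 4.20 in w1118 and 5.61 in its knockout, 5.37 in the tim-gal4 control and 4.09 with the transgene, so w1118 and overexpression were low and the other strains were high. Obp99b and Obp57c were called for overexpression and for the control strains. The means of Obp99b were 12.14 in w1118 and 11.74 in its knockout, 9.95 in the tim-gal4 control and 11.75 with the transgene, so the control of the overexpression strain was the strain that stood apart. Those of Obp57c were 10.72, 10.49, 10.17 and 9.35 in the same order. Obp99a had 9.50, 9.48, 8.53 and 4.89, and there overexpression was the lowest strain at each time. The mean of its driver control joins 6.33 at ZT4 and 10.72 at ZT16, on an array with body transcripts. Overexpression at ZT16, with 6.44, lay above the driver control at ZT4.

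The number of calls among control strains changed with single arrays, for members and for all probe sets. Between 2 and 8 members were called when each array was left out in turn. The lowest count came without w1118 at ZT16 (Obp8a and Obp99b), and 4 each were called without w1118 at ZT4 and without the tim-gal4 control at ZT16. There were 6 without the tim-gal4 control at ZT4, 7 without either knockout array and 8 without either overexpression array. Over all 8300 probe sets the count fell in the same fits, from 2567 to 754 without w1118 at ZT16, 1253 without w1118 at ZT4, 819 and 1239 without the tim-gal4 control at ZT16 and at ZT4, 1699 without either knockout array and 1902 without either overexpression array. Obp8a was called in each of these fits. None was called without both arrays with body transcripts, in a fit with 1 residual degree of freedom that called no probe set.

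By the lists, 0 of the 15 seen head members were called for the knockout, 1 was higher and 2 were lower under overexpression, and 7 were higher and 1 lower in w1118 than in the tim-gal4 control. Of the 5 seen seminal fluid members, 1 was higher in the knockout, 1 lower under overexpression and 2 lower in w1118. None of either list was called for time. Over all probe sets kept, 0.759% were called higher and 0.819% lower for the knockout, and 14.3% and 6.18% for overexpression. For the control strains the shares were 19.9% and 11.0%, and for time 0.157% and 0.217%. Whether the lists differ from these shares was not tested. Of 22 chemosensory genes outside the family, 16 were on the array and 2 were seen, Phk-3 and Snmp2. Neither was called for time or for the knockout.

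Phk-3, a member of the insect chemosensory protein family, read 6.34 and 6.23 in w1118, 6.86 and 6.90 in the knockout, 7.04 and 6.11 in the driver control, and 9.28 and 8.68 under overexpression. Both overexpression arrays were above all others, and the difference to the control was 2.40 (SE 0.26, limma adjusted p 0.00777). Snmp2, a sensory neuron membrane protein gene of support cells, was lower in w1118 than in the tim-gal4 control by a log2 difference of -0.73 (SE 0.20, limma adjusted p 0.0480).

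No member with several probe sets changed its place by that choice. The further probe sets of Obp19a, Obp19c and Obp59a read 2.34 at most. Another 4 probe sets carried an Obp symbol together with a second gene and were not used for members. The one of them above background names Obp57d and Cpr57A and read between 5.36 and 6.57, which cannot be assigned to either gene.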

How the data were processed

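RNA was hybridized to 8 arrays of fly heads, and the authors deposited 1 table of log2 intensities for 18952 probe sets, made with GCRMA per the submitters' processing notes. Its version and settings are not given in the sources used here, and the number of arrays limits the precision. The 183 control probe sets were left out. Groups come from titles and genotypes. Gene symbols come from the platform annotation, and all 47 members had the same symbol by gene ID in the RefSeq table (Release 6), which gave the gene order. No sequence or coordinate is printed.

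Probe sets with log2 of at least 4 on at least 2 arrays (8300) were fitted with limma 3.58.1 in R 4.3.3 with strain and time as terms (3 residual degrees of freedom), and with an interaction term (2). P-values are two-sided, with Benjamini-Hochberg adjustment over all probe sets kept in each of the 6 comparisons. The fit of ZT16 minus ZT4 was tested on simulated data, without strain differences or body transcripts. The strain comparisons and the interactions were not tested in this way. Tables and figures used pandas 2.3.3, numpy 2.4.6 and matplotlib 3.10.9 in Python 3.11.15.

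Values on every array are given for Obp99a, Obp99b, Obp57c, Obp19b and Obp8a, for called members and for members with a range of at least 1. Other seen members have their range and unseen ones their highest value. The members, the lists and the tests were chosen with earlier results of these data known. The lists hold markers of antenna and palp, taste organs, accessory gland, gut, testis, fat body, neurons and photoreceptors, seminal fluid and head odorant-binding members, other chemosensory genes and the core clock. Alternatives were filters, quantile normalization, 1 value per gene, trended and robust moderation, a term for the arrays with body transcripts, and fits without them, without each array in turn and on the strains compared alone.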

Additional observations from a re-analysis of the deposited data

Results flagged for a closer look

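Unseen members stayed out of the comparisons, and 2 of them had a value above the limit of 4 on a single array. Obp22a, known from seminal fluid, read 5.29 in the knockout at ZT16, one of the arrays with body transcripts, and 3.85 on the other. Obp83b, an antennal member, read 4.17 under overexpression at ZT16. Os-C, another gene of the antenna, read 3.38 there and 3.26 in the tim-gal4 control at ZT16, and at most 2.34 on the other arrays. Their relation was not tested.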

How the results depend on the processing

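Each comparison was recomputed under the alternatives named above. The 17 called differences of single members stayed called in 144 of 266 recomputations, with 122 not called and 0 in the other direction. In many of these the direction could not change. Other filters, 1 value per gene, trended and robust moderation and the fits on 4 arrays leave the difference itself the same. So does leaving out an array of a strain not compared. The kept direction is therefore no support from those settings. For time, the 0 members called became 1 with trended and robust moderation, and it was 0 without each array in turn. For the knockout, 1 member became 0 with no filter, 0 with the stricter filter of log2 at least 6, which leaves Obp8a out, and 2 with trended and robust moderation. It was 0 without both arrays with body transcripts, 0 on the 4 arrays of the strains compared and 0 to 1 without single arrays. For overexpression, 4 became 2 with no filter, 8 with trended and robust moderation, 0 without both arrays with body transcripts, 0 on the 4 arrays and 0 to 5 without single arrays. For the control strains, 12 became 4 with no filter, 0 without both arrays, 0 on the 4 arrays and 2 to 8 without single arrays. Quantile normalization called 10 for the control strains, without Obp69a and Obp83cd, and 2317 of all 8307 probe sets it kept. A term for both arrays called 9, and 2323 of all 8300. It lost Obp44a, Obp57c, Obp69a and Obp83cd and added Obp83ef. Over all 8300 probe sets, trended and robust moderation called 234 for time, 246 for the knockout and 2189 for overexpression, against 31, 131 and 1698. The fits without both arrays and on 4 arrays have 1 residual degree of freedom. The time change of the knockout had 2 called with no filter (Obp56i and Obp99d, both unseen) and 0 to 2 without single arrays, and that of overexpression 0 to 2. It could not be fitted without an array of the strain itself. The difference of Obp56f between knockout and w1118 turned to -0.090 without both arrays and to -0.10 at ZT4 alone, an alternative chosen after seeing the data. With a term for both arrays, the difference of Obp56f turned to 0.14 for overexpression and 0.19 for the control strains, and that of Obp51a to 0.19 in each. Between 20 and 24 members were seen under other limits. Members near 4 lie close to background, where GCRMA values are least quantitative, and 1 array per condition limits all tests. The time comparison already sets ZT16 against ZT4 within each of 4 strains, since strain is a term of the fit. No further block could be added, since each strain and time has 1 array.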
